A study of Mus musculus with 18 samples.

Results

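The expression of 10 genes that mark the epithelium of the choroid plexus was followed through 18 mouse forebrain libraries. They were chosen by symbol (Ttr, Otx2, Enpp2, Aqp1, Folr1, Kl, Clic6, Kcne2, Calml4 and Sostdc1), and all 10 were found among the 24062 lines of the deposited gene table. RNA had been taken from C57BL/6 mice of 2 genotypes, wild type (WT) and Chd2+/- (HET, heterozygous for Chd2, a chromatin remodeller). Embryos at E13.5 gave the cortex and the medial ganglionic eminence (MGE), a ventral source of interneurons, and mice at P45 gave the hippocampus, with 3 WT and 3 HET libraries each in 6 groups. Libraries were built from poly(A) RNA of dissected tissue, and levels are given as CPM, counts scaled to library size with TMM factors. The labels do not say whether the 3 libraries of a group came from separate animals, so every p-value measures only the spread between these libraries.

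The choroid plexus is a fringe of epithelium that hangs from the dorsal midline into each brain ventricle and secretes cerebrospinal fluid. It arises beside the cortical hem, directly next to the embryonic cortex and the future hippocampus, so a piece of it can come along when these tissues are cut out, while the MGE lies in the ventral forebrain. Its cells make transthyretin (Ttr) in great amount, carry water and ions across the epithelium (Aqp1, Kcne2, Clic6), take up folate (Folr1), bear motile cilia and depend on the homeobox factor Otx2 for their identity.

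Promoters of members with a RefSeq entry (GRCm38.p6, the same coordinates as mm10) were read to show the regulatory sequence of genes whose levels varied together in the cortex. Entries matched 5 members with 9 start sites (Otx2, Aqp1, Kl, Kcne2 and Calml4), and Ttr, Enpp2, Folr1, Clic6 and Sostdc1 were not matched. The 3 windows that follow overlap no annotated exon of the gene and are given 5′ to 3′ on the gene's strand, each 250 bases ending at the base before the start: Otx2 at chr14:48667645-48667894 (minus strand), Aqp1 at chr6:55336049-55336298 (plus strand) and Kcne2 at chr16:92292139-92292388 (plus strand). Capitals mark the motif TAATTA bound by many homeodomain factors.
Otx2: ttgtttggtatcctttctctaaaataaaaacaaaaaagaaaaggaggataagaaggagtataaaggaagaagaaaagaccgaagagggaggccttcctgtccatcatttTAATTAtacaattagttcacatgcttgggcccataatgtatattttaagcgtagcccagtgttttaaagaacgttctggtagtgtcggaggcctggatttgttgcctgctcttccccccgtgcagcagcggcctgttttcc
Aqp1: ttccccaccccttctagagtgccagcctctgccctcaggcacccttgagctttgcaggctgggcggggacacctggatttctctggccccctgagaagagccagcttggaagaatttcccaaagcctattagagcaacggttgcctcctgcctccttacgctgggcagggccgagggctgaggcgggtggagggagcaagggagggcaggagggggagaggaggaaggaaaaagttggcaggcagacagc
Kcne2: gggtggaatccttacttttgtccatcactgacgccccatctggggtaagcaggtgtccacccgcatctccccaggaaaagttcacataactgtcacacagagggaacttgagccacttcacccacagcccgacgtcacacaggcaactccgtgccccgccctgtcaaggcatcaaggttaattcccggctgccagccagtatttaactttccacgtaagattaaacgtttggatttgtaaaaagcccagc
Over all 9 windows, searched on both strands, the OTX core (TAATCC or GGATTA) lay in 1, a forkhead motif (TGTTTAC or GTAAACA) in 0 and the palindromic TAATTA in 2. Of 32851 mouse promoter windows of this length, 6.25% held the OTX core, 3.17% the forkhead motif and 4.84% TAATTA. The OTX core match, GGATTA 211 bases before another Otx2 start, lay in a window that is wholly exonic in GENCODE M21. In the window printed for Otx2, TAATTA begins 141 bases before the start. The other window with TAATTA was the same exonic window of Otx2, a gene that supplied 4 of the 9 windows. The Aqp1 and Kcne2 windows held none of these motifs.

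The libraries held 26841671 to 38802765 counts, and 3 counts, taken as the limit of detection, equalled 0.0757 to 0.108 CPM. Chd2 was lower in all 9 HET libraries than in any WT library of the same tissue, at 136 to 144 against 153 to 175 CPM in MGE, 124 to 125 against 143 to 153 CPM in cortex, and 64.4 to 67.5 against 70.7 to 78.9 CPM in hippocampus. The tissue labels were met by their markers. A list of 9 ganglionic eminence genes summed to 2712 to 3496 CPM in MGE and to 15.9 to 65.7 CPM in cortex, and the myelin list summed to 6790 to 10678 CPM in hippocampus against 59.2 to 88.2 CPM in the embryonic libraries. Cortex HET 1 and HET 2 stood apart from the other cortex libraries in red blood cell, excitatory neuron and ganglionic eminence genes, with values given beside the cortex results below.

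The cortex libraries differed from each other in the summed level of the 10 genes by far more than any other set of replicates. Summed over the 10 genes, the level was 1671, 23.4 and 1279 CPM in cortex WT 1, 2 and 3 and 26.0, 284 and 490 CPM in HET 1, 2 and 3. Cortex WT 2 and HET 1 were low and the other 4 libraries high, so each genotype held libraries of both kinds and the highest value was 71.55 times the lowest. In MGE the sum was 38.5 to 48.9 CPM in WT and 38.8 to 42.4 CPM in HET. In hippocampus it was 201 to 219 CPM in WT and 220 to 311 CPM in HET. Otx2 supplied 58.7 to 80.7% of the counts in MGE and Enpp2 78.6 to 82.5% in hippocampus, so the sum reflects different genes by tissue. In these tissue samples, fewer epithelial cells and less RNA per cell cannot be told apart.

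**Figure D1:**
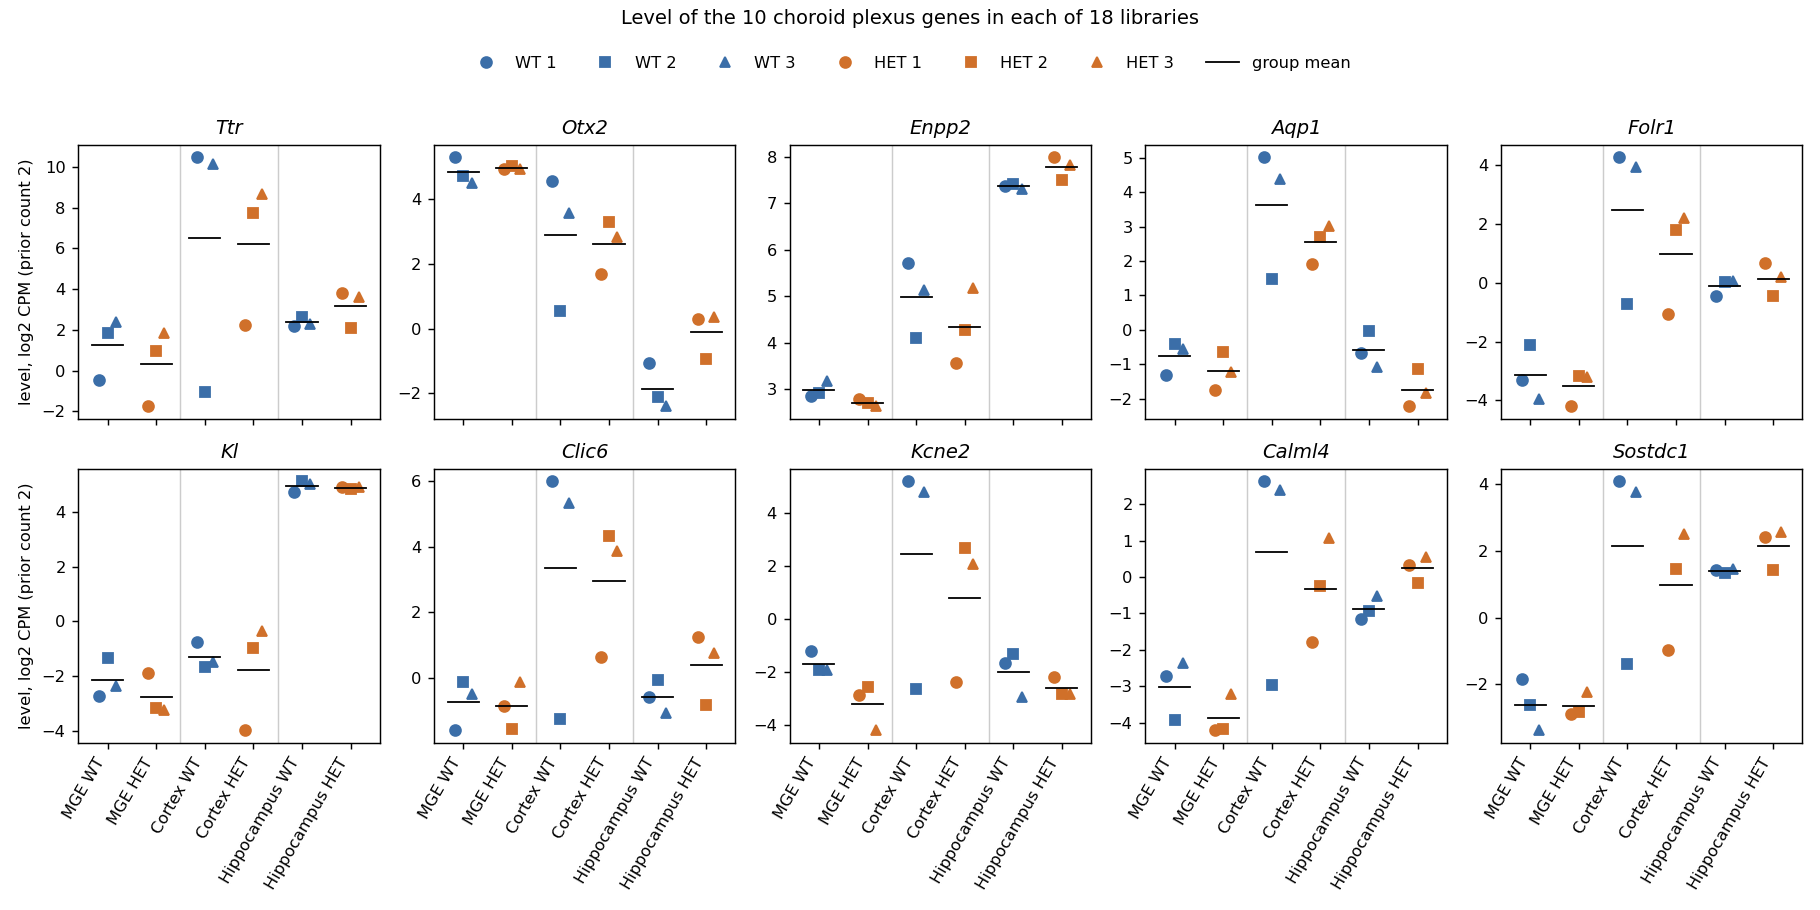
Level of each of the 10 genes in 18 libraries, as log2 CPM with a prior count of 2; each panel has its own vertical scale, each point is a library and each black line the mean of a group of 3. The cortex points spread over the widest range for Ttr, with WT 2 and HET 1 at the bottom of the cortex for all 10 genes.

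Among the secreted proteins, Ttr, the carrier of thyroxine and retinol-binding protein, had the widest range. Its cortical level was 1419, 0.415 and 1109 CPM in WT 1, 2 and 3 and 4.64, 215 and 407 CPM in HET 1, 2 and 3. The lowest WT library held 13 Ttr counts, and the highest exceeded it 3422-fold (95% counting interval 2001 to 6427, exact binomial on the 2 counts). Counting error alone enters such an interval. Among the HET libraries the ratio was 87.7 (74.5 to 104). Sostdc1, a secreted antagonist of BMP and Wnt signals, stood at 16.8, 0.319 and 13.4 CPM in WT libraries and at 0.448, 2.64 and 5.54 CPM in HET, the same order of libraries as Ttr. Enpp2, which encodes autotaxin, the enzyme that makes lysophosphatidic acid, kept a level of at least 11.8 CPM in every cortex library. Its values were 52.6, 17.2 and 35.0 CPM in WT and 11.8, 19.3 and 36.3 CPM in HET, so the range was only 4.46-fold.

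The genes of transport were also lowest in WT 2 and HET 1. Aqp1, the water channel of the apical membrane, stood at 32.3, 2.71 and 20.8 CPM in cortex WT libraries and at 3.71, 6.44 and 8.02 CPM in HET. Kcne2, a potassium channel subunit, stood at 36.5, 0.0957 and 27.2 CPM in WT libraries and at 0.128, 6.34 and 4.09 CPM in HET. The lowest WT library held 3 Kcne2 counts, which makes the ratio of 381 uncertain (130 to 1852), and the lowest HET library held 4. Clic6, a chloride intracellular channel family member, stood at 63.9, 0.351 and 40.3 CPM in WT libraries and at 1.47, 20.1 and 14.6 CPM in HET. Clic6, Kcne2 and Otx2 were higher in HET 2 than in HET 3, whereas the other 7 members were higher in HET 3. Kcne2 (chr16:92292389-92298129, mm10, GENCODE M21) and Clic6 (chr16:92485736-92541243) lie on the same strand 187.6 kb apart.

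Folr1, the folate receptor through which the plexus loads folate into the fluid, stood at 19.4, 0.542 and 15.3 CPM in cortex WT libraries and at 0.416, 3.46 and 4.62 CPM in HET. Calml4, a calmodulin-like protein of microvilli, stood at 6.11, 0.0638 and 5.17 CPM in WT libraries and at 0.224, 0.779 and 2.06 CPM in HET. For Calml4 the lowest WT library held 2 counts. Kl, the FGF23 co-receptor klotho, was barely detected in cortex, at 0.542, 0.255 and 0.287 CPM in WT libraries and at 0, 0.440 and 0.724 CPM in HET, where 0 counts in HET 1 allow up to 0.0960 CPM. Otx2 (chr14:48657677-48673819, minus strand) stood at 23.7, 1.40 and 11.8 CPM in WT libraries and at 3.17, 9.86 and 7.10 CPM in HET. Its antisense neighbour Otx2os1 shares 154 exonic bases with it. The kit does not mark strand, so reads of the pair cannot be told apart there, but Otx2os1 reached at most 0.843 CPM in any library.

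Cortex WT 1 was the highest library for 9 of 10 members, with Kl, highest in HET 3, as the exception, and WT 3 was the next highest for 8. WT 2 and HET 1 were the 2 lowest libraries for all 10. The makeup of the signal differed between these kinds of library. Ttr made up 84.9 and 86.8% of the counts of the 10 genes in WT 1 and WT 3 and 75.6 and 83.1% in HET 2 and HET 3, against 1.78% in WT 2 and 17.8% in HET 1. Enpp2 supplied 73.6% of them in WT 2 and 45.4% in HET 1. With Ttr set aside, the sum still ran from 22.9 to 252 CPM in WT and from 21.4 to 83.0 CPM in HET.

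**Figure D2:**
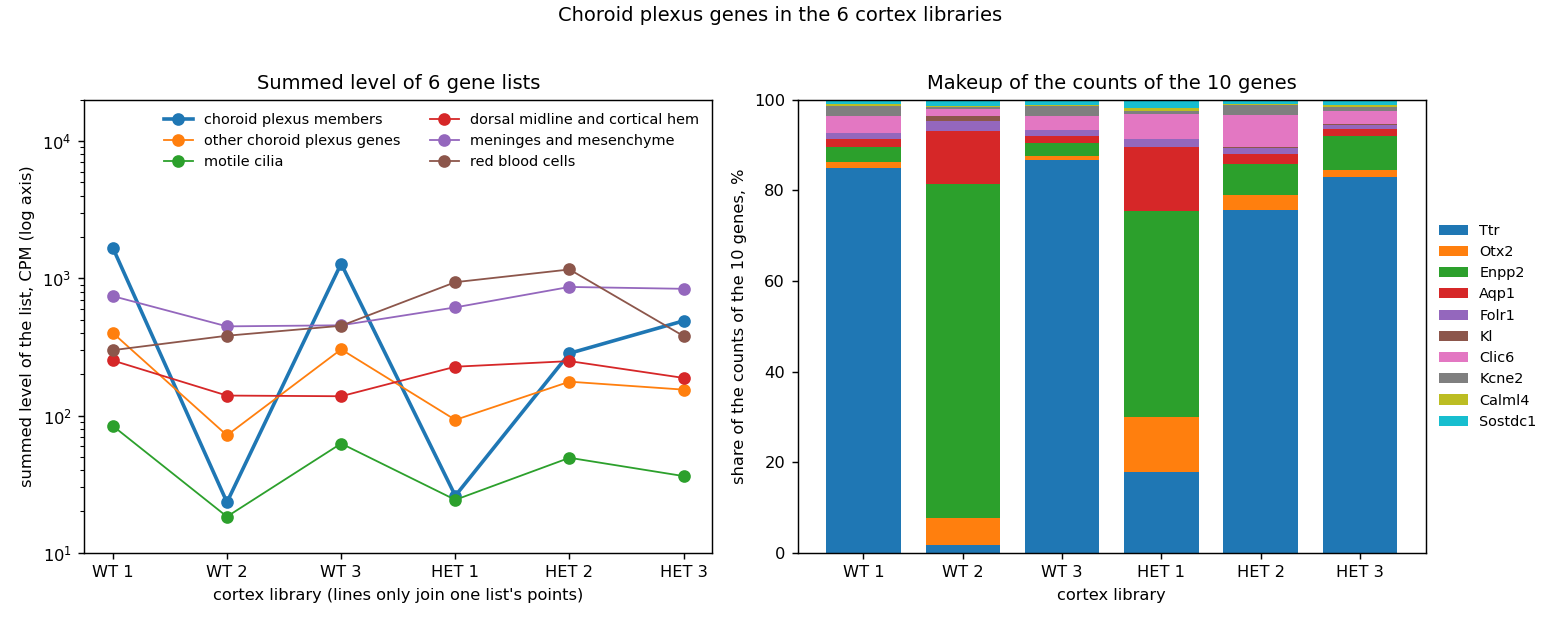
Left, summed CPM (log axis) of the 10 genes, labelled members, and of 5 other gene lists in each cortex library; right, share of the counts of the 10 genes that each gene supplied, in percent. The sum of the 10 genes runs from 23.4 to 1671 CPM, while the Ttr share drops to 1.78% in WT 2 and 17.8% in HET 1. The motile cilia list, also lowest in WT 2 and HET 1, spans a 4.58-fold range. Unlike the sum of the 10 genes, it is higher in HET 2 than in HET 3.

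Levels of different genes were compared per kilobase of exon. In cortex WT 1, the library richest in these genes, Ttr reached 1197 CPM per kb. Kcne2 was next at 20.7, then Clic6 at 16.3, Aqp1 at 12.3, Sostdc1 at 9.41, Enpp2 at 9.11, Folr1 at 8.45, Otx2 at 5.63, Calml4 at 1.68 and Kl at 0.0581 CPM per kb. In hippocampus WT 1 the order was another one, led by Enpp2 at 28.6 CPM per kb, with Ttr at 3.84 and Kl at 2.84 CPM per kb. In MGE WT 1 it was led by Otx2 at 9.35 CPM per kb, with Enpp2 at 1.25 and Ttr at 0.574 CPM per kb.

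The spread between libraries of a group was measured as the pooled SD of log2 CPM (prior count 2) for each of 16125 genes. Its median was 1.47 over the 10 members and 0.198 over all genes, of which 1 in 100 exceeded 1.06. Without cortex WT 2 the median over the members was 0.910. Ttr (3.21) had the 4th largest spread of all genes, Kcne2 (2.19) the 10th and Clic6 (1.95) the 15th. Sostdc1 (1.51), Calml4 (1.49) and Folr1 (1.45) ranked 35th, 36th and 41st. Enpp2 was the least variable member, at 0.486, which is percentile 83.0 of all genes. Within tissues the median SD of the members was 2.40 in cortex, 0.692 in MGE and 0.497 in hippocampus, against 0.221, 0.180 and 0.124 for all genes.

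**Figure D3:**
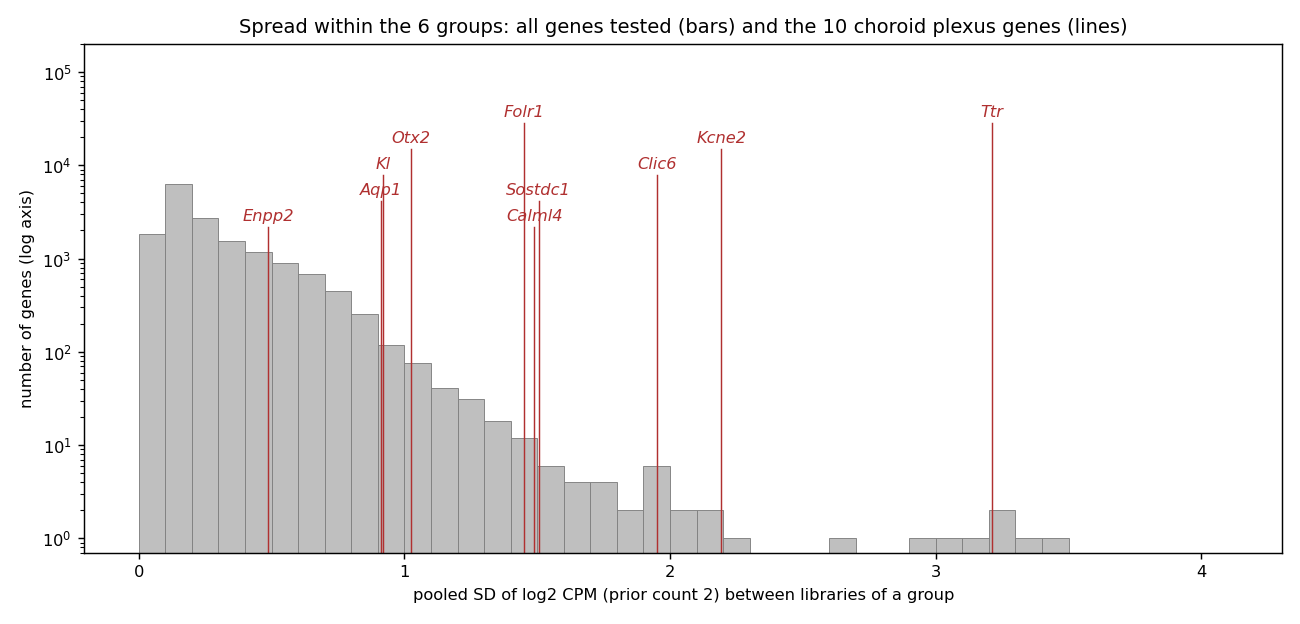
Number of genes (log axis) by pooled SD of log2 CPM between libraries of a group, with the 10 choroid plexus genes as labelled lines. Ttr lies at 3.21 and Enpp2, the lowest of the 10, at 0.486, while the median of all 16125 genes is 0.198.

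In MGE, Otx2 was the leading member and the other genes were low. Otx2 stood at 39.5, 26.1 and 22.6 CPM in WT libraries and at 30.6, 32.9 and 30.4 CPM in HET, which was 58.7 to 80.7% of the counts of the 10 genes. Its order over the MGE libraries was not that of the other members (r = -0.52 with their mean, 6 libraries, a description only). The other members shared an order only in part, with r from -0.15 for Sostdc1 to 0.70 for Aqp1, each against the mean of the rest. Genes of low count enter these means. A list of 9 thalamus and pretectum genes summed to 43.2, 28.9 and 20.3 CPM in WT and to 57.7, 26.1 and 44.8 CPM in HET, in the order of Otx2 over the WT libraries and not over the HET libraries. The part of such neighbouring tissue in the Otx2 level was not tested. Enpp2 stood at 7.24, 7.51 and 8.99 CPM in WT libraries and at 6.89, 6.49 and 6.18 CPM in HET. Ttr stood at 0.681, 3.51 and 5.18 CPM in WT libraries and at 0.245, 1.88 and 3.51 CPM in HET. Aqp1 and Clic6 reached at most 0.863 CPM, and Folr1, Kl, Kcne2, Calml4 and Sostdc1 at most 0.378 CPM in any MGE library.

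In hippocampus the members split into abundant and scarce ones. Enpp2 (chr15:54838901-54952892, minus strand) and Kl (chr5:150952607-150993817) were abundant. Enpp2 stood at 165, 172 and 158 CPM in WT libraries and at 255, 181 and 228 CPM in HET, and it supplied 78.6 to 82.5% of the counts of the 10 genes. Kl stood at 26.5, 34.7 and 32.0 CPM in WT libraries and at 30.2, 28.6 and 29.9 CPM in HET, the steadiest member in this tissue. Ttr, so abundant in 4 cortex libraries, stood at 4.56, 6.14 and 4.89 CPM in WT libraries and at 14.1, 4.19 and 12.3 CPM in HET. Sostdc1 stood at 2.62, 2.43 and 2.70 CPM in WT libraries and at 5.28, 2.63 and 5.81 CPM in HET. HET 1 and HET 3 were the high libraries for both genes, while HET 2 lay within or close to the WT range. Folr1, Clic6, Calml4, Otx2, Aqp1 and Kcne2 did not exceed 2.30 CPM.

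Because Enpp2 is also made by myelinating oligodendrocytes, it was set beside 9 myelin genes. Their summed level was 8086, 8628 and 6790 CPM in WT and 10678, 7289 and 9738 CPM in HET, with Mbp, the basic protein of myelin, at 4099, 4378 and 3423 CPM in WT and 5288, 3634 and 4880 CPM in HET. HET 1 and HET 3 were the high libraries for both Enpp2 and this list. The motile cilia genes, which ependymal cells express, were also highest there. The 15 genes of that list summed to 49.8, 56.2 and 45.7 CPM in WT and to 87.3, 52.6 and 94.8 CPM in HET, with none of the 15 at 0. Between HET and WT, 14 of the 15 lay above 0 and none passed in edgeR, while 8 of the 9 myelin genes lay above 0 and 1 passed, Opalin (0.76, SE 0.13, adjusted p = 0.0293), a protein of myelinating cells. Endothelial genes were lower in HET. Their list of 9 summed to 156, 151 and 149 CPM in WT and to 112, 111 and 99.6 CPM in HET with no overlap, none of the 9 at 0 and 8 of them below 0. Of these, Flt1 (-0.81, SE 0.07, adjusted p = 2.19e-04), a VEGF receptor, and Esam (-0.54, SE 0.12, adjusted p = 0.0491), an endothelial adhesion molecule, fell in edgeR. Opalin, Flt1 and Esam are named because they passed. Of all 15283 genes tested for genotype in hippocampus, 1.07% passed in edgeR and 48.6% lay below 0. With a library left out, 23 to 292 genes passed. The calls on Opalin, Flt1 and Esam were not followed through those fits. The part of these cell types in the member levels was not tested.

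**Figure D4:**
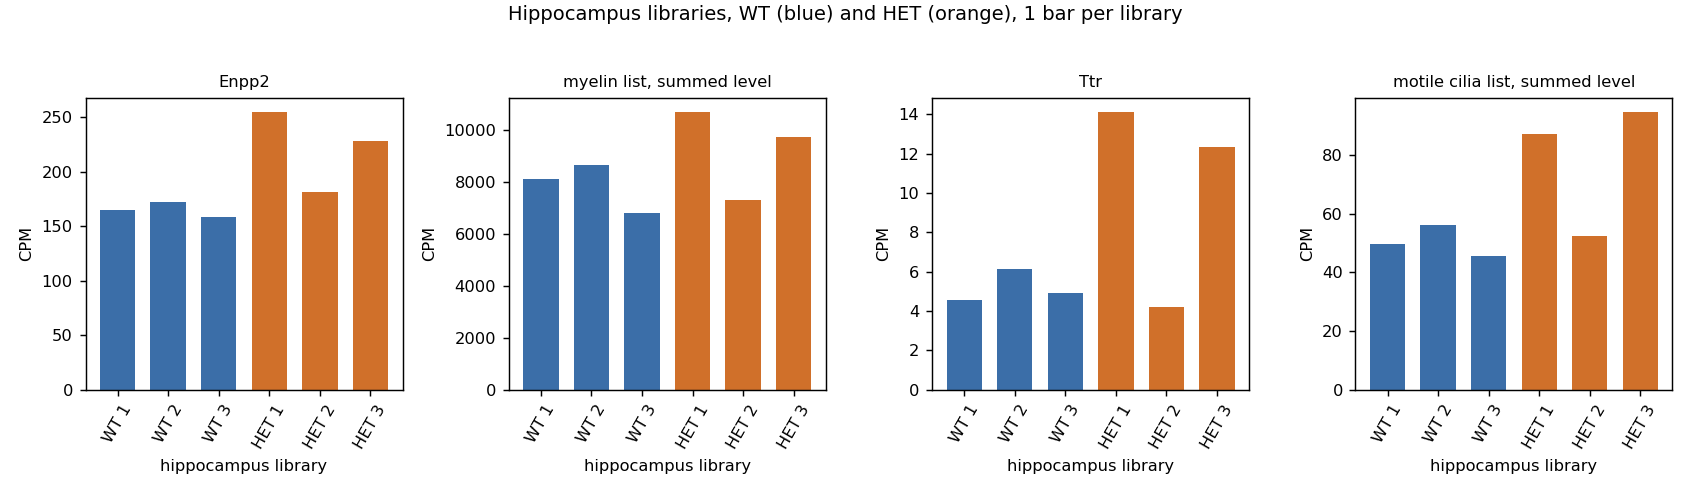
CPM of Enpp2 and Ttr and summed CPM of 9 myelin genes and 15 motile cilia genes in each hippocampus library; blue bars are WT and orange bars HET libraries, and each vertical axis starts at 0. HET 1 and HET 3 are the 2 highest libraries in all 4 panels, and HET 2 lies near the WT libraries.

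Tissues were compared in one fit of all 18 libraries, each tissue as the mean of its genotypes. Between cortex and MGE all 10 members passed the threshold (edgeR quasi-likelihood test, Benjamini-Hochberg adjusted p under 0.05), as did 57.3% of all 16125 genes. Of these, 9 were higher in cortex (29.8% of all genes were), led by Ttr with a log2 difference of 7.45 (SE 1.46, adjusted p = 8.01e-04). Folr1 (6.73), Kcne2 (6.01), Calml4 (5.53), Sostdc1 (5.48), Clic6 (5.18) and Aqp1 (4.49) followed. Folr1 and Calml4 rest on 0 to 5 counts per MGE library, so their fitted differences depend on how low counts are handled. Enpp2 was higher by 1.97 (SE 0.26). Kl was higher by 1.42 (SE 0.53, adjusted p = 0.0310), a call lost when any of 7 libraries was left out (MGE WT 1, WT 3, HET 2 or HET 3, or cortex WT 1, HET 2 or HET 3), with adjusted p of 0.0527 to 0.150. Otx2 alone was lower in cortex (27.5% of all genes were), by -1.74 (SE 0.43, adjusted p = 0.00270). The libraries of cortex and MGE did not overlap for Enpp2, Aqp1, Folr1 and Sostdc1, 4 of 10, against 28.5% of all genes. Cortex WT 2 and HET 1 lay within the MGE range for Ttr (0.415 and 4.64 against 0.245 to 5.18 CPM). So they did for Kcne2 (0.0957 and 0.128 against 0 to 0.378 CPM), and for both genes the higher cortex mean came from the other cortex libraries. For Clic6 and Calml4, WT 2 lay within the MGE range (0.351 and 0.0638 CPM) and HET 1 above it (1.47 and 0.224 CPM).

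For the hippocampus, tissue and age cannot be told apart. Against cortex, 8 of 10 members passed (85.5% of all genes did), 2 of them higher (42% of all genes) and 6 lower (43.5%) in hippocampus. Kl was higher by 6.30 (SE 0.34, adjusted p = 1.005e-11) and Enpp2 by 2.77 (SE 0.25, adjusted p = 1.67e-08). Kcne2 (-5.91), Ttr (-5.85), Aqp1 (-4.74), Clic6 (-4.42), Otx2 (-4.27) and Folr1 (-2.57) were lower. Of these, the libraries of the tissues overlapped for Kcne2, Ttr, Clic6 and Folr1 and not for Aqp1 and Otx2. Ttr in cortex WT 2 (0.415 CPM) lay below every hippocampus library (4.19 to 14.1 CPM). Calml4 (-1.40, adjusted p = 0.0580) and Sostdc1 (-0.66, adjusted p = 0.304) did not pass. Without cortex WT 2 both passed (Calml4 -1.69, adjusted p = 0.00152; Sostdc1 -0.95, adjusted p = 0.0347), and Calml4 also passed without cortex HET 1 (-1.63, adjusted p = 0.0278). In each of those fits 84.2% of all genes passed. Against MGE, 6 of 10 members passed (86.6% of all genes did), 5 higher (43.9%) and 1 lower (42.6%). Kl (7.72), Sostdc1 (4.82), Enpp2 (4.74), Folr1 (4.16) and Calml4 (4.14) were higher in hippocampus, and Otx2 (-6.01, SE 0.59) was lower. Ttr, Clic6, Kcne2 and Aqp1 differed by 1.61 (SE 1.32), 0.77 (SE 1.04), 0.10 (SE 1.58) and -0.25 (SE 0.60) and did not pass.

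Genotype was tested after this spread had been measured. In MGE, 5 of 10 members had enough counts to be tested, none passed (0.0479% of 14624 genes did), and none had an unadjusted p under 0.05 (4.51% did) or passed in DESeq2. The log2 difference between HET and WT was 0.09 (SE 0.19) for Otx2, -0.72 (SE 1.03) for Ttr and -0.28 (SE 0.16) for Enpp2. Enpp2 was lower in every HET than in any WT library, the only tested member without overlap (5.47% of all genes tested were lower without overlap). Kcne2, not tested, held 6 to 15 counts in WT and 0 to 4 in HET libraries.

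In cortex all 10 members were tested and none passed in edgeR, in DESeq2 or at an unadjusted p under 0.05. Of 14757 genes tested, 0% passed in edgeR, 8 genes passed in DESeq2 and 7.89% had an unadjusted p under 0.05. Of the 10 differences, 9 were below 0, and their median was -1.70 against 0.01 for all genes, but the HET and WT libraries of every member overlapped, whereas 11.1% of all genes did not overlap. The standard errors show how wide the range was. Ttr differed by -2.01 (SE 2.35, adjusted p = 0.737), Kcne2 by -2.59 (SE 1.59, adjusted p = 0.581), Folr1 by -2.03 (SE 1.11), Aqp1 by -1.61 (SE 0.74, adjusted p = 0.578) and Enpp2 by -0.63 (SE 0.48). Kl differed by 0.12 (SE 0.94). Leaving out any one cortex library moved the Ttr difference between -2.92 and -1.42 with no member passing, although 4598 other genes passed without HET 3. With the mean level of the 10 members as a covariate, 0 of 14747 other genes differed between HET and WT in edgeR.

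In hippocampus 9 of 10 members were tested and none passed in edgeR (1.07% of 15283 genes did). An unadjusted p under 0.05 was reached by 6 of them (15.6% of all genes). Of the 9 differences, 7 were above 0, with a median of 0.83 against 0.0047 for all genes, beside the myelin, motile cilia and endothelial levels given above for the same libraries. Otx2 differed by 2.00 (SE 0.54, adjusted p = 0.108), from 0.127 to 0.414 CPM in WT and 0.450 to 1.22 CPM in HET. Calml4 differed by 1.20 (SE 0.36, adjusted p = 0.148), Clic6 by 1.21 (SE 0.52), Ttr by 0.98 (SE 0.47, adjusted p = 0.400), Sostdc1 by 0.83 (SE 0.27, adjusted p = 0.173) and Enpp2 by 0.43 (SE 0.11, adjusted p = 0.138). Aqp1 had a difference of the other sign, -1.34 (SE 0.51, adjusted p = 0.237), from 0.412 to 0.920 CPM in WT and 0.144 to 0.381 CPM in HET. Kl differed by -0.07 (SE 0.09). Otx2, Enpp2 and Calml4, higher in HET, and Aqp1, lower, had groups that did not overlap, 3 of the 9 tested in the first direction (9.17% of all genes) and 1 in the other (11.7%). Except for Enpp2 these gaps rest on few counts. The nearest WT and HET libraries held 12 and 13 counts for Otx2, 20 and 24 for Calml4, and 13 and 11 for Aqp1.

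The edgeR calls for Ttr, Enpp2 and Sostdc1 depended on HET 2. Without it these 3 of the members passed, as did 0.99% of all genes, with Ttr (1.35, adjusted p = 0.00309), Enpp2 (0.55, adjusted p = 0.00507) and Sostdc1 (1.11 with an adjusted p of 0.0199). Leaving out each other hippocampus library gave 0. DESeq2 on all 6 libraries passed 1 member, Enpp2 (adjusted p = 0.00235), and 3.18% of all genes, and gave no adjusted p for 5 of low count.

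**Figure D5:**
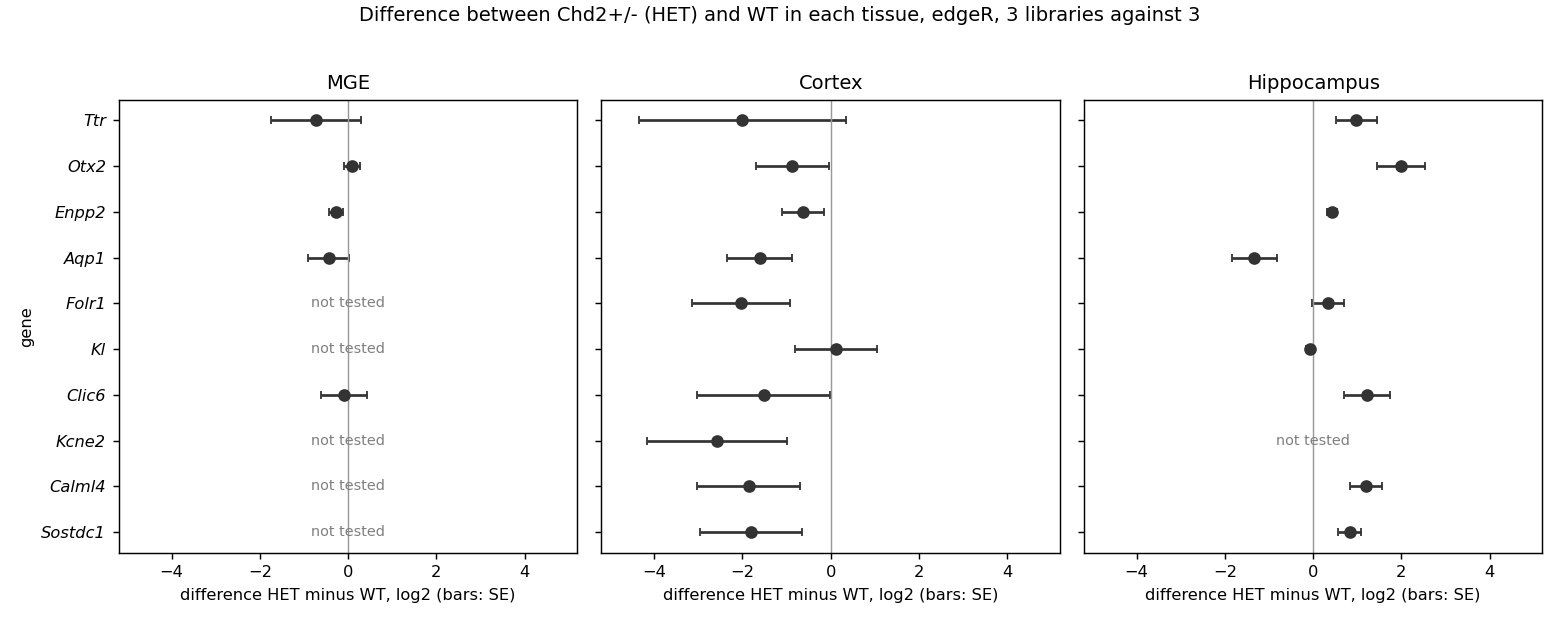
Log2 difference between HET and WT (points) with its SE (bars) for each gene in each tissue, from edgeR on 3 against 3 libraries; genes with too few counts are marked as not tested. In cortex 9 of 10 points lie below 0, with the widest bar for Ttr (SE 2.35), and in hippocampus 7 of 9 lie above 0.

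Whether the genotype difference itself differed between tissues was tested as an interaction. None of the 10 members passed for cortex against MGE (0% of all genes), hippocampus against cortex (0.0124%) or hippocampus against MGE (0.0062%), in edgeR or in DESeq2. At an unadjusted p under 0.05 the counts were 0, 4 and 0 members, against 7.01, 12.8 and 7.36% of all genes. The 4 were Otx2, Enpp2, Calml4 and Sostdc1, with differences of 2.88 (SE 1.27), 1.06 (SE 0.48), 3.07 (SE 1.32) and 2.63 (SE 1.19) between hippocampus and cortex. Without cortex HET 3, Enpp2 was the 1 member of 10 that passed in that contrast (1.62, adjusted p = 0.0256), where 17.1% of all genes passed. The hippocampal comparison and the cortical one each enter these contrasts, so they are not independent of the values above.

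A list of 30 further choroid plexus genes, of which 29 were in the table, varied less in its sum between the cortex libraries, though not in each gene. Its sum was 400, 71.8 and 304 CPM in cortex WT and 93.0, 176.5 and 154 CPM in HET, a 5.57-fold range, lowest again in WT 2 and HET 1 but higher in HET 2 than in HET 3. Within it, Htr2c ran from 0.223 to 17.9 CPM in cortex WT and from 0.0640 to 4.71 CPM in cortex HET. Wdr86 ran only from 2.71 to 8.40 CPM in WT and from 2.72 to 4.62 CPM in HET. Between cortex and MGE, 21 of 28 tested genes were higher and 1 lower, against 29.8 and 27.5% of all genes. The largest differences were for Tmem72 (6.71, SE 1.40), Cldn2 (5.84, SE 1.28), a claudin of leaky tight junctions, Htr2c (5.48, SE 1.05), the serotonin receptor 2C, and Wfikkn2 (5.25, SE 0.62). Between hippocampus and cortex 7 of 28 were higher and 11 lower, against 42 and 43.5% of all genes, with Prlr, the prolactin receptor, at 5.11 (SE 0.48), Slc4a5, a bicarbonate transporter, at -4.83 (SE 1.02), Wfikkn2 at -4.68 (SE 0.60) and Wdr86 at -4.15 (SE 0.36). Between hippocampus and MGE 13 of 28 were higher and 3 lower, against 43.9 and 42.6% of all genes, with Htr2c (7.03), Cldn2 (5.53), Trpm3 (5.50) and Car12 (5.43) at the top.

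By genotype, 26 of the 27 listed genes tested in cortex lay below 0 (47.7% of all genes did), with a median of -1.12, and none passed in edgeR. Many of these genes varied together between libraries, so the 27 signs are not separate results. The list sum was highest in WT 1 and WT 3 (400 and 304 CPM), while WT 2 (71.8 CPM) lay below every HET library. In hippocampus 1 of 23 passed in edgeR (1.07% of all genes did, and 0.262% were higher), Lbp, the lipopolysaccharide-binding protein, which rose by 0.81 (SE 0.17, adjusted p = 0.0491). Its level was 3.76, 2.92 and 3.20 CPM in WT libraries and 6.25, 4.95 and 6.12 CPM in HET libraries, with no overlap. The call was lost without WT 2, WT 3, HET 1 or HET 3, with the replicate number as a block and in one fit of all libraries (adjusted p = 0.0869 to 1.00). In MGE none of 19 passed in edgeR.

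The genes most like the members were sought over the 18 libraries among 2771 variable genes, by Pearson correlation of log2 CPM centred on each tissue with the mean of the members. That mean ran from -2.92 to 2.36 in cortex, from -0.515 to 0.451 in MGE and from -0.406 to 0.511 in hippocampus. The cortex libraries therefore weigh most in r. As description, with library composition shared by all points, the closest were Krt8 (r = 0.959, rho = 0.899), Abcg5 (0.959 and 0.816), Tmem72 (0.953 and 0.787), Zmynd10 (0.952 and 0.699), Wdr63 (0.948 and 0.866), Cldn2 (0.948 and 0.882), Ttc21a (0.947 and 0.901), Ttll6 (0.947 and 0.822), Ak7 (0.944 and 0.802) and Cldn1 (0.944 and 0.734). Krt8, a keratin of simple epithelia, stood at 6.38, 0.0638 and 5.06 CPM in cortex WT libraries and at 0.0640, 1.69 and 1.36 CPM in HET. Ak7, an adenylate kinase of cilia, stood at 8.07, 0.0638 and 6.32 CPM in WT libraries and at 0, 2.47 and 2.90 CPM in HET. Among the members themselves, each gene's correlation with the mean of the other 9 over the 6 cortex libraries ran from 0.619 for Kl to 0.992 for Sostdc1. In hippocampus Aqp1 ran against the others (r = -0.75).

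Lists for neighbouring tissue did not all share this order in cortex. The 15 motile cilia genes summed to 84.1, 18.3 and 62.5 CPM in WT and to 24.3, 49.2 and 36.2 CPM in HET, lowest in the same 2 libraries as the members. Foxj1, the master regulator of motile cilia, stood at 36.2, 11.3 and 25.1 CPM in WT libraries and at 12.9, 23.3 and 16.3 CPM in HET, whereas Tmem212, named after its values were seen, was at 0 in every embryonic library. The 14 dorsal midline and cortical hem genes summed to 252, 140 and 138 CPM in WT and to 227, 249 and 188 CPM in HET, so HET 1, low in the members, was high in these. Lmx1a, a roof plate and hem regulator, stood at 9.18, 2.52 and 5.17 CPM in WT libraries and at 3.94, 7.35 and 3.31 CPM in HET. The 12 meningeal and mesenchymal genes summed to 742, 446 and 455 CPM in WT and to 614, 865 and 838 CPM in HET, with WT 3 near the bottom.

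Other lists set cortex HET 1 and HET 2 apart from the rest. The 10 red blood cell genes summed to 937 and 1160 CPM there, against 299 to 451 CPM in the other 4 libraries. Of those 10 genes, 4 adult globins were at 0 in every library, and why they held no counts was not tested. The 8 excitatory neuron genes summed to 1633 and 1518 CPM there against 2196 to 2687 CPM, and the 9 ganglionic eminence genes to 17.5 and 15.9 CPM against 39.7 to 65.7 CPM. The 10 cell cycle genes summed to 3490 and 3556 CPM against 2407 to 2648 CPM. HET 1 and HET 2, alike in these lists, held 26.0 and 284 CPM of the choroid plexus members. The part of these differences in the genotype comparison was not tested.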

How the data were processed

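Gene expression was measured by RNA sequencing of poly(A) RNA. The authors deposited a table of unnormalized counts for each gene symbol (27 symbols had been turned into dates and are not named). Per the submitters' processing notes, FastQC, Trimmomatic, TopHat2 2.1.1, SAMtools and DESeq2 were used with build mm10. The counting program, strand setting and annotation: not given in the sources used here. Each of the 18 columns was matched to a sample by name, and 26841671 to 38802765 counts per library set the precision. Replicates differed by 5.79 to 100.5 times counting noise, so none was a copy of another.

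Genotype was tested within each tissue, and tissues and interactions over all 18 libraries, with edgeR 4.0.16 in R 4.3.3 (quasi-likelihood test, robust; TMM; filterByExpr with a minimum count of 10 and total of 15). Adjustment was by Benjamini-Hochberg over all genes tested. The SE was taken from the log2 difference and its F statistic. CPM on all figures and in the text use TMM factors over the 18 libraries. Alternatives were RLE scaling, no filter, DESeq2 1.42.0, a replicate block, one fit of all libraries, CPM without TMM, a prior count of 0.5 and leaving out each library, with the members' mean as a covariate in cortex. The fit was checked on simulated counts with known changes, drawn independently for each gene. Shifts shared by many genes of a library were not simulated. Positions and exon lengths are those of GENCODE M21 (mm10).

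The members, lists and tests were chosen with earlier results of these data known. The genes named were the members, up to 4 other choroid plexus genes per comparison by size among those past the threshold, the first genes of other lists and the 10 genes most like the members.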

Additional observations from a re-analysis of the deposited data

Results flagged for a closer look

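The genotype difference of Enpp2 pointed opposite ways in 2 tissues. Enpp2 was picked by searching all 10 members for groups without overlap in opposite directions. In hippocampus every HET library lay above every WT library (log2 difference 0.43, SE 0.11), and in MGE every HET library lay below every WT library (-0.28, SE 0.16). Neither passed the threshold in edgeR, and the interaction between these tissues was 0.70 (SE 0.50, adjusted p = 0.768). Of all genes tested, 9.17% were higher without overlap in hippocampus and 5.47% were lower without overlap in MGE. In hippocampus the myelin list was highest in the same libraries as Enpp2 (10678 CPM in HET 1 and 9738 CPM in HET 3). In HET 2 that list, at 7289 CPM, lay within the WT range of 6790 to 8628 CPM. Enpp2 stood at 181 CPM in HET 2, above the highest WT library at 172 CPM. The part of myelinating cells in the Enpp2 level was not tested.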

How the results depend on the processing

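No member passed for genotype in MGE or cortex under any alternative run. In hippocampus 1 member passed in DESeq2, and 0 to 3 did when a library was left out; in the interaction of hippocampus and cortex the latter gave 0 to 1. Same-numbered WT and HET libraries of a tissue correlated at -0.223 to 0.126 in their deviations, so the numbers were not taken to pair samples. The replicate block turned the cortex difference of Kl to -0.18, lowered the count of genes past the threshold in hippocampus from 164 to 80, and changed no call on a member. Leaving out each library gave differences of -0.064 to 0.37 for Otx2 and -0.59 to 0.26 for Clic6 in MGE, -1.40 to 0.014 for Otx2 and -0.71 to 0.67 for Kl in cortex, and -0.16 to 0.021 for Kl in hippocampus. It gave -0.19 to 0.40 for Kcne2 between hippocampus and MGE, and -0.39 to 0.79 for Aqp1 and -0.76 to 0.72 for Kl in the interaction of hippocampus and cortex.

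Counts over all genes moved more. DESeq2 passed 36 genes in MGE (7 in edgeR), 8 in cortex (0), 435 in hippocampus (164), and 14, 76 and 37 in the interactions of cortex with MGE, hippocampus with cortex and hippocampus with MGE (0, 2 and 1). Without the filter 1 passed in cortex and 291 in hippocampus, and in one fit of all libraries 4 and 11. With a library left out, 5 to 27 passed in MGE, 0 to 4598 in cortex and 23 to 292 in hippocampus, and 0 to 1044, 1 to 2791 and 1 to 12 in the interactions. The counts of 4598, 1044 and 2791 all came without cortex HET 3. The cause was not tested. The median SD of the members was 1.48 without TMM and 1.64 with a prior count of 0.5. Low counts limit Folr1, Kl, Kcne2, Calml4 and Sostdc1 in MGE, none of which was tested for genotype there.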
